A study of Homo sapiens with 6 samples.

Results

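The interferon-stimulated genes examined here are 43 genes whose transcription is known to be switched on by interferon, and each of the 43 was matched by its symbol to 1 row of a table of 58174 genes. The list was drawn up with earlier results of these data known. According to the labels, the RNA came from AGS, a human gastric adenocarcinoma cell line, in 3 libraries named si-NC and 3 named si-FTO. The methods of the study name an siRNA duplex against FTO and negative control oligonucleotides, each given by lipofection, and lentivirus for stable lines. FTO is the gene of an m6A demethylase of RNA. For the sequenced cells they state only whether FTO was depleted. That both groups had been transfected is inferred from the names si-NC and si-FTO. The genotype field of the labels reads "wild type" for the former and "FTO-/-" for the latter, and depletion by siRNA and a knockout cannot be told apart from the values. No untransfected cells and no second FTO siRNA were analysed here.

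Expression was given as TPM, the share that a gene's transcripts have among all transcripts once their length is corrected for, as 1 mean per group that the authors computed. The values of single libraries were not used here, so the spread between libraries is unknown and no test between them was made. The p-values and q-values of the authors' own comparison were not used either. Each difference below is thus a difference between 2 means without an error. TPM keeps no record of depth, so the depth is unknown as well. Differences are given as the log2 ratio of si-FTO over si-NC after 1 TPM was added to each mean, which understates the difference for low genes. A value of 0.0001 TPM stands in the place of 0, and genes with it are called listed at 0. Genes with a mean of at least 0.5 TPM in at least 1 group were compared, and "2-fold" means a log2 ratio of 1 or more in either direction.

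FTO itself had a mean of 33.1 TPM in si-NC against 7.27 TPM in si-FTO (log2 ratio -2.05). The lower value thus stood in the group labelled as depleted.

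Interferons are secreted proteins that bind paired receptors at the cell surface, where the kinases JAK1, JAK2 and TYK2 phosphorylate STAT factors. STAT2 then acts with IRF9 in a complex that binds a DNA element named ISRE in front of target genes, whereas interferon gamma acts through an element named GAS. The products of these targets cut or trap viral RNA, block the fusion or release of virions, or act back on the pathway, and in epithelia such as that of the stomach they form part of the innate defence of the mucosa.

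The cell type was checked against marker genes. Among keratins of simple epithelium, KRT18 and KRT8 were present in both groups and KRT7 in si-FTO, with KRT18 at 52.1 TPM in si-NC against 1851 TPM in si-FTO, KRT8 at 10.8 TPM and 3139 TPM, and KRT7 listed at 0 in si-NC with 253 TPM in si-FTO, whereas KRT19 and KRT20 were under the filter in both groups. The epithelial adhesion genes EPCAM and CDH1 were low, at 1.22 TPM and 3.67 TPM in si-NC and 0.113 TPM and 0.685 TPM in si-FTO. SPINT2 was also lower in si-FTO, at 38.2 TPM in si-NC against 7.99 TPM. Other epithelial genes were higher in si-FTO. ELF3 had 0.115 TPM in si-NC against 93.3 TPM in si-FTO, CLDN7 had 1.17 TPM and 14.8 TPM, and ESRP2 had 2.44 TPM and 26.0 TPM. Several defining genes of gastric mucosa, TFF1, TFF3, GKN1, GKN2 and PGC, were listed at 0 in both groups, so the stomach origin was not visible in them. Transcription factors of foregut epithelium stood in si-NC, where GATA4 had 36.96 TPM and SOX2 13.2 TPM, and both were listed at 0 in si-FTO. GATA6 was lower in si-FTO but still present, at 20.3 TPM in si-NC against 2.54 TPM. The neurofilament genes NEFL and NEFM, at 62.7 TPM and 49.9 TPM in si-NC, were also listed at 0 in si-FTO, whereas NEFH, of the same family, had 0.242 TPM in si-NC against 12.97 TPM in si-FTO, and UCHL1 went from 303 TPM in si-NC to 0.0204 TPM in si-FTO. The groups therefore differed in genes that mark cell lineage, apart from the interferon-stimulated genes. Whether both groups are the same cell line was not tested, and this limits what each difference between si-FTO and si-NC below can be taken to mean.

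**Figure D1:**
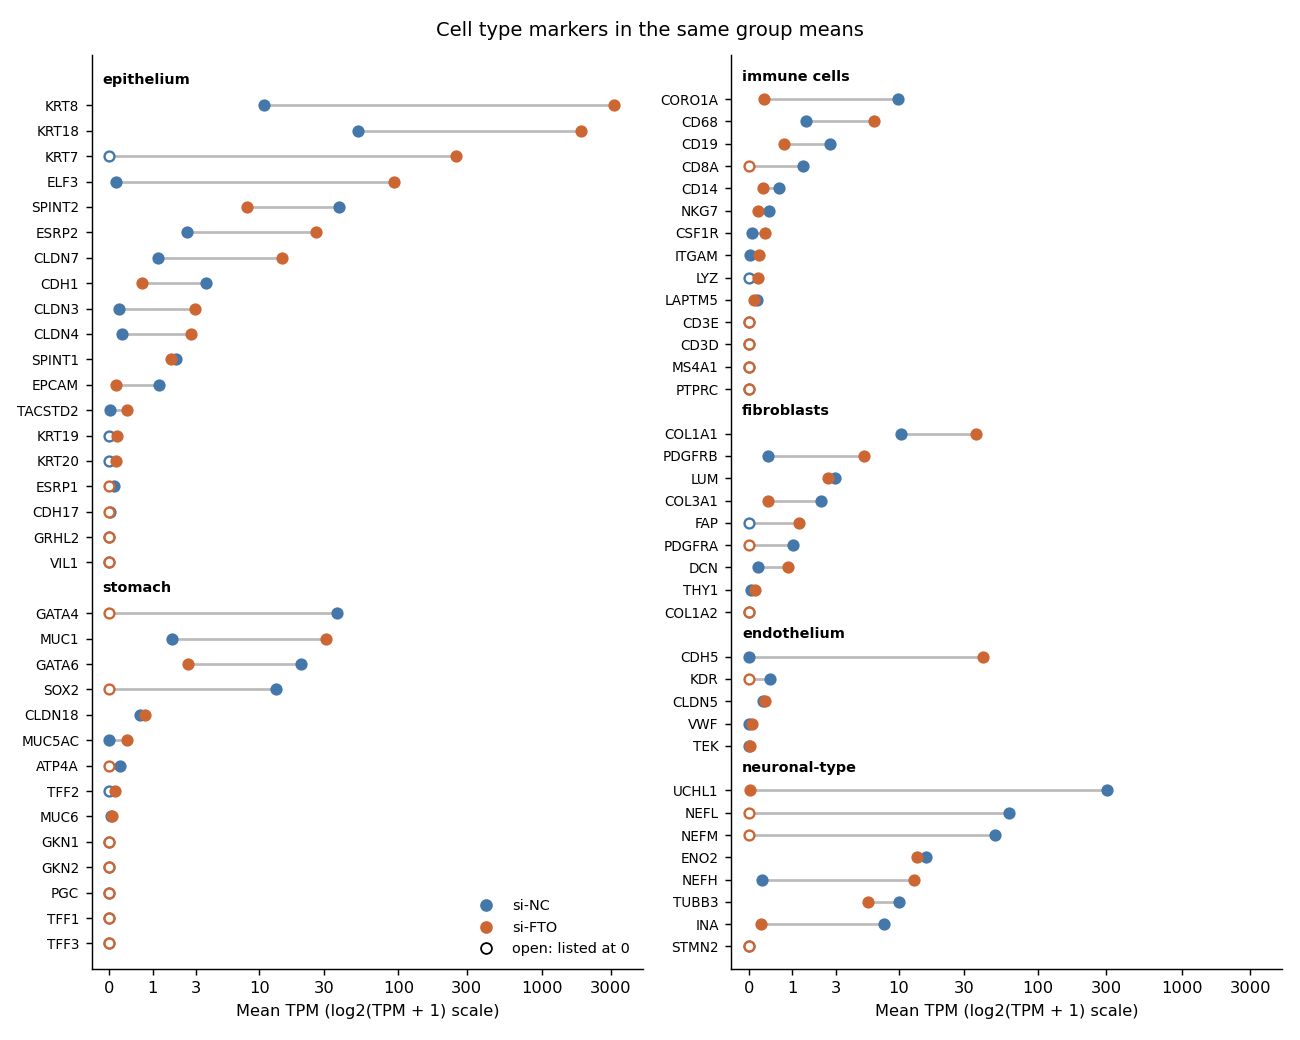
Mean TPM of cell type markers in si-NC (blue) and si-FTO (orange), on a log2(TPM + 1) axis, with an open circle for a gene listed at 0. KRT7, KRT8 and KRT18 are higher in si-FTO (KRT8 at 3139 TPM), whereas GATA4, SOX2, NEFL and NEFM appear in si-NC and are listed at 0 in si-FTO.

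Over whole marker lists, the 19 epithelial genes summed to 112 TPM in si-NC against 5393 TPM in si-FTO. KRT7, KRT8 and KRT18 held 62.9 TPM and 5243 TPM of these sums. Of the epithelial genes, 8 were at least 2-fold higher in si-FTO and 2 were lower, beside 11.4% and 17.0% of all genes compared. The 14 stomach markers that could be matched summed to 73.0 TPM and 34.8 TPM, with 1 gene higher and 3 lower. The counts of each list in this paragraph can be set beside the same shares. Neuronal-type markers summed to 449 TPM in si-NC against 32.5 TPM in si-FTO over 8 genes, of which 1 was higher and 4 were lower. Markers of immune cells, which carry strong interferon signatures in tissue, summed to 16.7 TPM and 8.59 TPM over 14 genes, with 1 higher and 3 lower. CORO1A, at 9.91 TPM in si-NC, was their most abundant gene, and PTPRC, CD3D and MS4A1, which define leukocytes, T cells and B cells, were listed at 0 in both groups. Fibroblast markers summed to 17.0 TPM and 46.8 TPM over 9 genes, led by COL1A1, with 3 higher and 2, COL3A1 and PDGFRA, lower, and 5 endothelial markers summed to 0.685 TPM and 41.3 TPM, nearly all of it CDH5 at 40.9 TPM in si-FTO. The part of these lists in the differences of the interferon-stimulated genes was not tested. In RNA from a whole culture, fewer cells of a type and less RNA per cell cannot be told apart.

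Most interferon-stimulated genes had more RNA in si-FTO than in si-NC. Of the 43 members, 25 were at least 2-fold higher in si-FTO and 1, HERC5, was at least 2-fold lower. With a pseudocount of 0.1 TPM, IFI27, IFI44L and EPSTI1 passed the lower bound as well, which makes 4, and IFI44 and MX2 passed the upper bound, which makes 27. On the main scale, another 11 members lay between these bounds and 6 did not reach the filter of 0.5 TPM in either group. Among all 20493 genes compared, 11.4% were at least 2-fold higher and 17.0% at least 2-fold lower, and among the 14176 protein-coding genes compared the shares were 12.0% and 19.1%. These shares are over genes that passed the filter, as 37 of the members did. The median log2 ratio over all 43 members, without the filter, was 1.29, beside -0.03 over all 19634 protein-coding genes. Over all genes that passed the filter it was -0.20. Of the 37 members that passed the filter, 23 reached 0.5 TPM in both groups, 12 in si-FTO only and 2 in si-NC only, so their median of 2.09 partly reflects the filter. Without any bound on the size of the difference, 35 members had the higher mean in si-FTO and 7 in si-NC.

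Scaling of the groups to a common median ratio removed a shift of 0.21 between them on the log2 scale. After it, 25 members were at least 2-fold higher and 1 was lower, beside 13.6% and 14.1% of all genes compared, and the median over the 43 members was 1.49. The direction of the set was therefore the same relative to the bulk of genes.

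The members were also sorted by whether they were listed at 0. Above 0 in both groups stood 35 members, and this held for 74.4% of the 19634 protein-coding genes of the table. XAF1 alone was listed at 0 in both groups, as were 12.9% of protein-coding genes. OAS1, OAS2, SAMD9L, TRIM22 and PARP14, 5 members, were listed at 0 in si-NC only, a state of 3.03% of protein-coding genes. CMPK2 and IFI44L were listed at 0 in si-FTO only, as were 9.76% of protein-coding genes. With 1 TPM as the bound for expression, 21 members were expressed in both groups, 12 in si-FTO only, 0 in si-NC only and 10 in neither. The same bound put 57.0% of protein-coding genes in both groups, 3.76% in si-FTO only, 8.15% in si-NC only and 31.1% in neither. At this bound, members expressed in a single group were thus expressed in si-FTO, while among all protein-coding genes si-NC was the more frequent group.

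**Figure D2:**
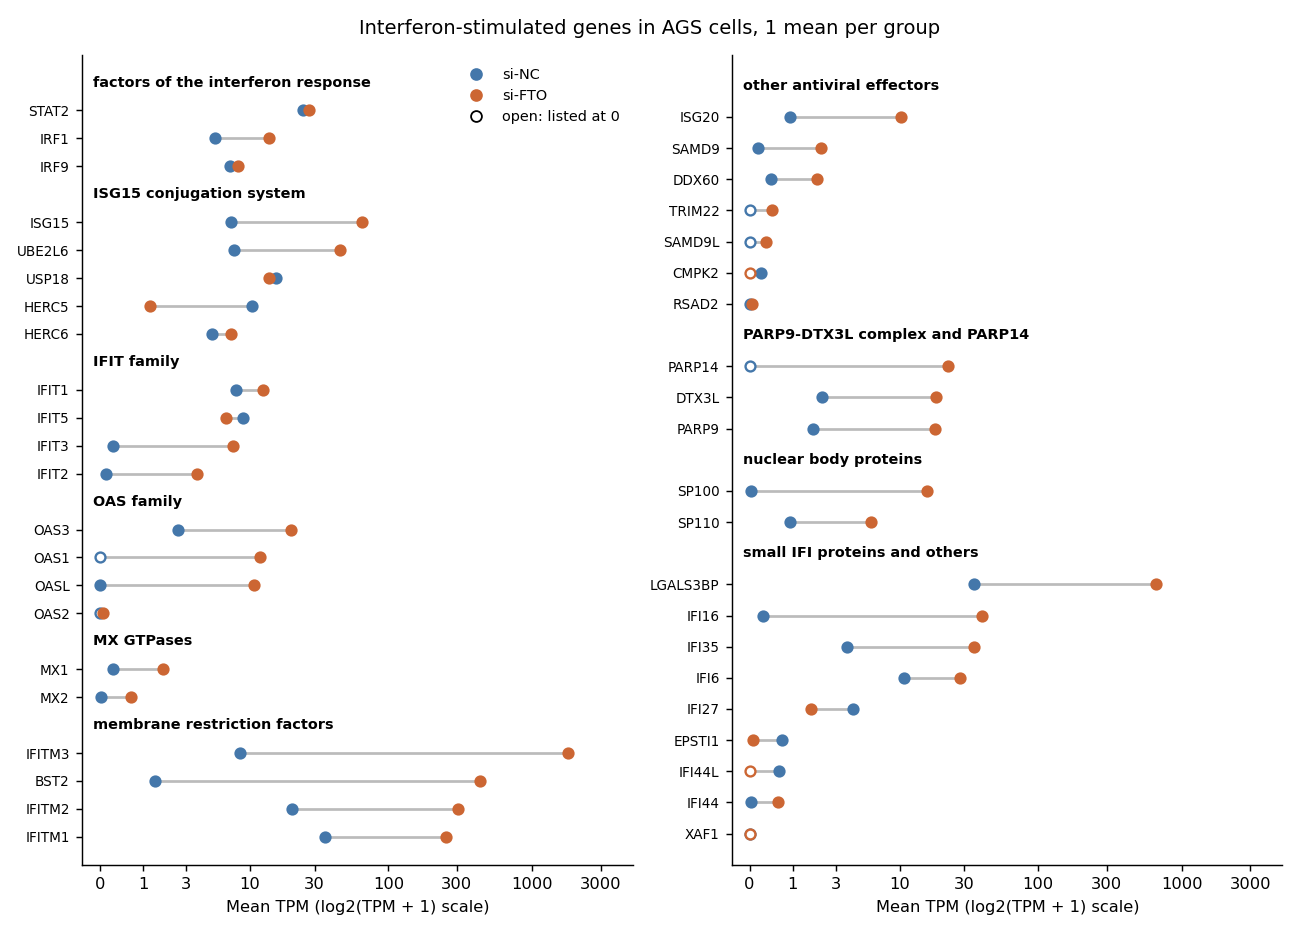
Mean TPM of the 43 interferon-stimulated genes by role in si-NC (blue) and si-FTO (orange), 1 mean per group without an error, on a log2(TPM + 1) axis, with an open circle for a gene listed at 0. The widest gaps are those of IFITM3 (8.37 TPM and 1776 TPM) and BST2 (1.41 TPM and 439 TPM) on this scale, and HERC5 is among those that run the other way.

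The levels shifted as well as the counts. At least 10 TPM was reached by 7 members in si-NC and 22 in si-FTO, whereas among protein-coding genes the shares were 45.7% and 43.9%. No member reached 100 TPM in si-NC, and 5 did in si-FTO (11.6%), beside 7.66% and 7.82% of protein-coding genes. Summed over all 43 members, the level was 231 TPM in si-NC against 3895 TPM in si-FTO, a ratio of 16.9. IFITM3, LGALS3BP, BST2, IFITM2 and IFITM1 held 3434 TPM of the si-FTO sum and 101 TPM of the si-NC sum. The other 38 members summed to 130 TPM and 461 TPM, a ratio of 3.55, so the sum is carried by a few abundant transcripts and the count of members is not.

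**Figure D3:**
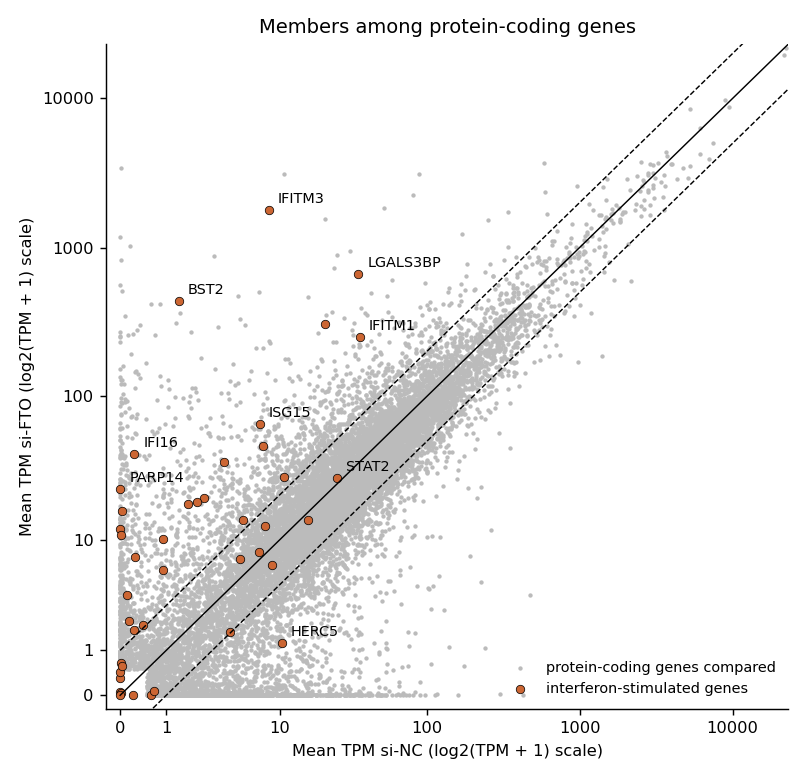
Mean TPM in si-NC (horizontal) and si-FTO (vertical), both on log2(TPM + 1) axes, for the 14176 protein-coding genes compared (grey) and the 43 interferon-stimulated genes (orange), with the line of equal values and dashed lines at 2-fold. Of the members, 25 lie at or above the upper dashed line and pass the filter, and with this pseudocount of 1 TPM HERC5 lies below the lower one.

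The promoters of the members were searched for the elements bound by the factors of the pathway. The RefSeq promoter windows of GRCh38.p14 run from 250 bases before to 50 bases after an annotated start, and 36 of the 43 members were found there with 50 windows. No window was found for USP18, IFIT2, OAS2, OASL, MX2, IFITM2 and TRIM22. The core of the ISRE was searched as GAAANNGAAA on both strands. It was present in a window of 23 of the 36 members (63.9%), beside 637 of 15220 protein-coding genes (4.19%) and 1255 of all 35116 windows (3.57%). A shorter palindrome, TTCNNNGAA, which stands for GAS, was present in 12 of the 36 members (33.3%) and in 9.03% of protein-coding genes, and matches of both motifs can share bases. A match describes the sequence of the window only. The members were listed as known targets of interferon, so more matches than in other genes can follow from that choice, whatever their expression here.

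Whole windows are shown for IFITM3 and BST2, the members with the largest log2 ratios on the main scale, and for ISG15, a member named after the class. Capitals mark matches to the ISRE core, the bases run from 5′ to 3′ along the strand of the gene, and coordinates are those of an exact match to GRCh37.
IFITM3, chr11:320811-321110, minus strand: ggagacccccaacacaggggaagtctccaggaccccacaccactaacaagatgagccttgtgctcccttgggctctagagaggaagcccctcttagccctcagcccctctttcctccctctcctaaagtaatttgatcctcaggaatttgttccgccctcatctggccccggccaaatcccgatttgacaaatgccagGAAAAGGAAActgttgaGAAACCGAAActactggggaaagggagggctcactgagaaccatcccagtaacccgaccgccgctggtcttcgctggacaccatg
BST2, chr19:17516390-17516689, minus strand: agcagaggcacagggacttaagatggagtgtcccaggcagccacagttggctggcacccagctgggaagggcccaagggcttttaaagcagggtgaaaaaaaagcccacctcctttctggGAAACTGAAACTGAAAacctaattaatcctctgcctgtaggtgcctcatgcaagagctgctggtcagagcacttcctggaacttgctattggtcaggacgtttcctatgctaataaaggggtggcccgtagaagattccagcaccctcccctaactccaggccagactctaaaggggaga
ISG15, chr1:948627-948926, plus strand: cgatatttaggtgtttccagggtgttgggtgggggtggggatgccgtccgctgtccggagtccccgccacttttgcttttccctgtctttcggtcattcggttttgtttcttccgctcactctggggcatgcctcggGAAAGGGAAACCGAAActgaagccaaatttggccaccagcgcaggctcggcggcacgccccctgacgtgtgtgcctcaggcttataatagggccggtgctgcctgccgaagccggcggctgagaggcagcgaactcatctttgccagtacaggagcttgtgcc
Counted from 0 at the annotated start, the matches in IFITM3 began at -52 and -35, and those in BST2 at -130 and -124, where they share bases. The ISG15 window also held overlapping matches, which began at -113 and -107.

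Shorter stretches, with 15 bases on each side of a match, are shown for examples of members that differed in expression. The capitals are alike because the search fixed them, and members without a match cannot appear, so no likeness between members is read from them. PARP14, LGALS3BP, IFITM1, OAS3, ISG20 and SAMD9 were at least 2-fold higher in si-FTO, IFIT1 and IFIT5 were neither higher nor lower by that bound, and HERC5 was lower. Where the capitals read TTTCNNTTTC, the core lies on the opposite strand. Only the match at the centre of a stretch is in capitals, and the IFIT1 stretch holds another in lower case. The window of HERC5 had no exact match in GRCh37 and carries no coordinates.
PARP14, chr3:122399642-122399681, plus strand: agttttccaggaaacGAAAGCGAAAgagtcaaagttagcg
LGALS3BP, chr17:76976039-76976078, minus strand: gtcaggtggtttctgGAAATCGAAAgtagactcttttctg
IFITM1, chr11:314019-314058, plus strand: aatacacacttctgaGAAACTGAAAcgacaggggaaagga
OAS3, chr12:113376121-113376160, plus strand: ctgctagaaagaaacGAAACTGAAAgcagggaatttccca
ISG20, chr15:89182163-89182202, plus strand: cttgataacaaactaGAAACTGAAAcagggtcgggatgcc
SAMD9, chr7:92747404-92747443, minus strand: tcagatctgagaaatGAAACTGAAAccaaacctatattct
IFIT1, chr10:91152249-91152288, plus strand: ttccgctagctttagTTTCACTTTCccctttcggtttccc
IFIT5, chr10:91174265-91174304, plus strand: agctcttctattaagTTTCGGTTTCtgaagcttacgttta
HERC5: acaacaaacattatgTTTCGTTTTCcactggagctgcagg
Of the members at least 2-fold higher in si-FTO, 15 of the 22 with a window held a match. So did 7 of the 13 members that were neither higher nor lower or were under the filter, and the HERC5 window held 3 matches. The core was therefore present in members with and without a large difference, and the shares of 68.2% and 53.8% were not tested against each other. GAS was present in 9 of the 22 (40.9%) and in 3 of the 13 (23.1%), and HERC5 held none. Matches numbered 42 in all, began between -196 and 11, and had a median position of -90.5.

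**Figure D4:**
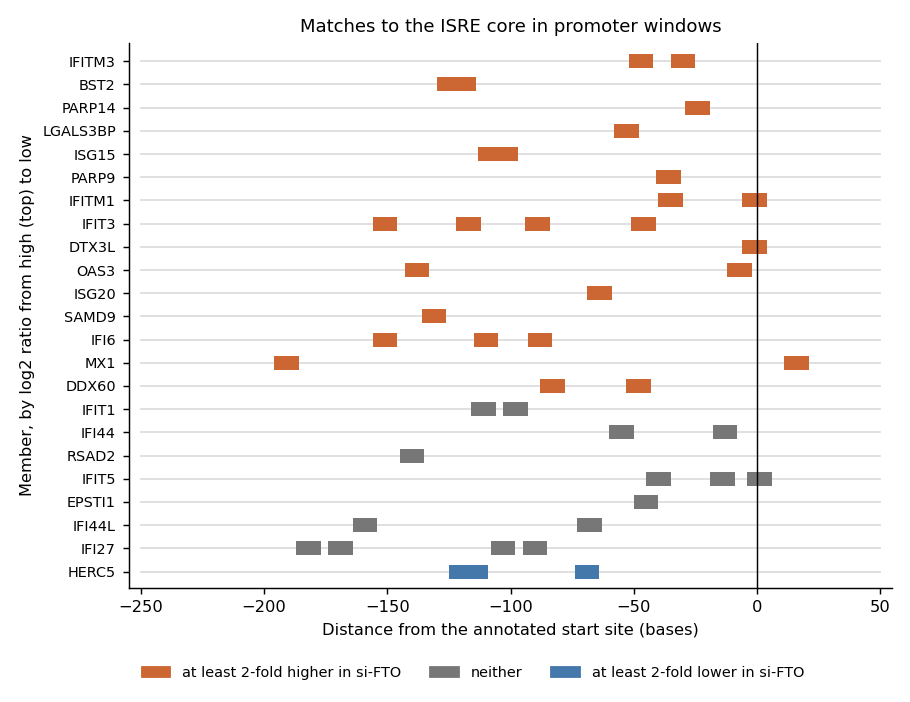
Positions of matches to the ISRE core (boxes, to scale) in the promoter windows of the 23 members that held one, as distance in bases from the annotated start, with members ordered by log2 ratio. Orange, grey and blue boxes are members at least 2-fold higher in si-FTO, neither, and lower, and a stretch that lies in the windows of 2 starts of a gene is drawn for each; matches occur along the whole order, from IFITM3 at the top to HERC5 at the bottom.

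Upstream in the pathway, the ligands were nearly absent. None of 21 interferon genes reached 0.5 TPM in either group, and 16 were listed at 0 in both. IFNE, the interferon of epithelia, was the most abundant at 0.111 TPM in si-NC against 0.215 TPM in si-FTO. IFNB1, the interferon made early by virus-infected cells, was listed at 0 in si-NC and had 0.0425 TPM in si-FTO, and IFNG was listed at 0 in both groups.

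Receptors and kinases were expressed in both groups. The counts of this list and of those that follow can be set beside the shares of all genes compared, 11.4% at least 2-fold higher and 17.0% lower. Of 6 receptor genes, 0 were at least 2-fold higher and 1 was lower in si-FTO. IFNAR1, a chain of the receptor for type I interferons, had 16.7 TPM in si-NC against 17.2 TPM in si-FTO, and its partner IFNAR2 had 21.7 TPM and 12.2 TPM. IFNGR1, the ligand-binding chain for interferon gamma, was the lower one, at 49.4 TPM in si-NC against 18.4 TPM in si-FTO (log2 ratio -1.38). IFNGR2 and IL10RB differed little, at 39.0 TPM and 12.6 TPM in si-NC and 38.9 TPM and 13.9 TPM in si-FTO. None of the 3 kinases passed 2-fold, with JAK1 at 41.1 TPM and 73.2 TPM and TYK2 at 79.8 TPM and 69.2 TPM. Apart from IFNGR1, the receptor and kinase genes thus differed by less than 2-fold between the groups, unlike most of the targets.

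The factors that carry the signal to the genes include 3 members. STAT2, the subunit of the ISRE-binding complex that brings the activating domain, had 24.9 TPM in si-NC against 27.5 TPM in si-FTO (log2 ratio 0.14). IRF9, the DNA-binding subunit of that complex, had 7.04 TPM and 8.15 TPM, but 92.9% of the 31-base words of its transcript also occur in an annotated read-through gene on the same strand, so its value is uncertain. IRF1, a factor induced by interferon gamma, was higher at 5.36 TPM in si-NC against 14.0 TPM in si-FTO (log2 ratio 1.24). An antisense gene, IRF1-AS1, overlaps IRF1 and had 1.94 TPM and 3.95 TPM, and since the strand setting of the counting is not given in the sources used here, reads of the pair may not have been told apart. Of these factors, only IRF1 stood past 2-fold, and the ISRE-binding subunits did not.

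Outside the members, 3 of 7 STAT and IRF genes were at least 2-fold higher and 1 was lower. STAT3 had 31.8 TPM and 118 TPM (log2 ratio 1.86), and IRF2, which competes with IRF1 for its sites, had 4.999 TPM and 21.8 TPM. IRF5, also past 2-fold, had 0.107 TPM and 1.51 TPM, and IRF8, the lower one, had 3.89 TPM in si-NC and was listed at 0 in si-FTO. IRF3, the factor that starts transcription of IFNB1, had 46.9 TPM in si-NC against 28.4 TPM in si-FTO. Among 9 brakes on the pathway, SOCS3 stood apart with 1.08 TPM in si-NC against 112 TPM in si-FTO (log2 ratio 5.76). The phosphatase gene PTPN6 was also higher, at 2.67 TPM and 15.4 TPM, and the other 7 brakes did not pass 2-fold. Of these, PTPN2, PIAS1 and PIAS4 had 21.0 TPM, 23.0 TPM and 28.7 TPM in si-NC and 31.2 TPM, 21.6 TPM and 28.5 TPM in si-FTO, and IRF2BP1 and IRF2BP2 had 53.6 TPM and 63.2 TPM in si-NC and 27.1 TPM and 64.9 TPM in si-FTO.

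ISG15 is a ubiquitin-like protein that is attached to other proteins by its own enzymes. Its RNA had 7.18 TPM in si-NC against 64.8 TPM in si-FTO (log2 ratio 3.01). UBE2L6, the conjugating enzyme that hands ISG15 on, had 7.55 TPM and 45.6 TPM (log2 ratio 2.44). HERC5, the main ligase of ISG15 in human cells, ran the other way with 10.4 TPM in si-NC against 1.25 TPM in si-FTO (log2 ratio -2.34). HERC6, its neighbour and paralog, had 5.03 TPM and 7.21 TPM (log2 ratio 0.44). USP18, the protease that removes ISG15 and also damps signalling at IFNAR2, had 15.8 TPM and 14.0 TPM (log2 ratio -0.17), a sign that turned with median-ratio scaling (log2 ratio 0.03), and 33.0% of the words of its transcript occur in the paralog USP41. UBA7, the activating enzyme, is not among the 43 members and had 1.41 TPM and 1.65 TPM. The modifier and its conjugating enzyme were thus past 2-fold higher in si-FTO while the activating enzyme, the ligase and the protease were not.

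The IFIT proteins bind viral RNA with foreign ends and share a cluster on chromosome 10. IFIT1, which binds RNA whose cap lacks methylation, had 7.77 TPM in si-NC against 12.6 TPM in si-FTO (log2 ratio 0.63). IFIT5, a sensor of triphosphate ends, had 8.80 TPM and 6.50 TPM (log2 ratio -0.39). IFIT3, which stabilises IFIT1 on RNA, had 0.241 TPM and 7.39 TPM (log2 ratio 2.76), and IFIT2 had 0.103 TPM and 3.71 TPM (log2 ratio 2.09). The family thus split, with a pair near silent in si-NC and a pair expressed in both groups. LIPA, annotated on the opposite strand over IFIT2, IFIT3 and IFIT1, had 77.7 TPM in si-NC against 40.9 TPM in si-FTO, and its part in their values was not tested.

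The OAS enzymes make short oligoadenylates from ATP when they meet double-stranded RNA, and these activate RNase L. OAS3, the longest of the synthetases, had 2.52 TPM in si-NC against 20.2 TPM in si-FTO (log2 ratio 2.59). OAS1, listed at 0 in si-NC, had 11.9 TPM in si-FTO. OAS2 lies in the same cluster on chromosome 12 and was listed at 0 in si-NC, with 0.0528 TPM in si-FTO. OASL, a relative without synthetase activity that enhances sensing by RIG-I, had 0.0107 TPM and 10.8 TPM (log2 ratio 3.54). In si-FTO the family thus had 3 members above 10 TPM and 1 near 0, and 0 members reached 10 TPM in si-NC.

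MX1 and MX2, dynamin-like GTPases that trap viral nucleocapsids, were low. MX1 had 0.231 TPM in si-NC against 1.73 TPM in si-FTO (log2 ratio 1.15), and MX2 had 0.0166 TPM and 0.650 TPM (log2 ratio 0.70). MX1, a gene often used to mark an interferon response, stood at 1.73 TPM in the group in which IFITM3 had 1776 TPM.

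The membrane restriction factors include IFITM3 and BST2, the members with the largest log2 ratios after 1 TPM was added. With 0.1 TPM, PARP14 (log2 ratio 7.85) passed IFITM3 (7.71) and BST2 had 8.18. IFITM3, which stops the fusion of virions in endosomes, had 8.37 TPM in si-NC against 1776 TPM in si-FTO (log2 ratio 7.57). Its relatives IFITM2 and IFITM1 had 20.7 TPM and 35.7 TPM in si-NC and 307 TPM and 251 TPM in si-FTO, log2 ratios of 3.83 and 2.78. In IFITM3, IFITM1 and IFITM2, 46.8%, 59.4% and 17.0% of the 31-base words occur in transcripts of other genes, each other among them, so reads may have been split between them. For IFITM1, 52.2% of the words occur in a single annotated gene that had no value here, so a sum over the family does not cover this part. The sum was 64.7 TPM in si-NC against 2334 TPM in si-FTO. BST2, or tetherin, which holds budding virions at the cell surface and shares no such word with another gene, had 1.41 TPM and 439 TPM (log2 ratio 7.51). By log2 ratio, IFITM3 and BST2 ranked 22 and 23 among the 20493 genes compared. All 4 factors in this class were thus past 2-fold, also in the least different, IFITM1.

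Other antiviral effectors were mostly scarce. ISG20, an exonuclease of RNA, was the most abundant of 7, with 0.918 TPM in si-NC against 10.2 TPM in si-FTO (log2 ratio 2.55). SAMD9, which blocks translation in infected cells, had 0.146 TPM and 2.13 TPM (log2 ratio 1.45), and its paralog SAMD9L was listed at 0 in si-NC with 0.2998 TPM in si-FTO. DDX60, a helicase that assists RIG-I, had 0.414 TPM and 1.96 TPM (log2 ratio 1.06), the smallest past 2-fold among members. RSAD2, or viperin, which makes a chain-terminating nucleotide, stayed at 0.0124 TPM and 0.0395 TPM. CMPK2, a nucleotide kinase whose gene overlaps RSAD2 on the opposite strand, had 0.205 TPM in si-NC and was listed at 0 in si-FTO. TRIM22, a ubiquitin ligase with antiviral activity, was listed at 0 in si-NC and had 0.438 TPM in si-FTO. RSAD2 and CMPK2, an adjacent pair, were therefore near silent in a group with abundant ISG15 and IFITM RNA.

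PARP9 and DTX3L form a complex of an ADP-ribosyltransferase and a ubiquitin ligase, and their genes lie head to head on chromosome 3. PARP9 had 1.78 TPM in si-NC against 18.3 TPM in si-FTO (log2 ratio 2.80), and DTX3L had 2.16 TPM and 18.8 TPM (log2 ratio 2.65). The partners were thus nearly equal in level in each group. Both windows hold the same match to the ISRE core, which the sequences show as read along either gene, with the core in capitals.
PARP9, chr3:122283164-122283203, minus strand: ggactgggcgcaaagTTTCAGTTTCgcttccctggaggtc
DTX3L, chr3:122283164-122283203, plus strand: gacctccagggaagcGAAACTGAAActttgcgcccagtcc
PARP14, a mono-ADP-ribosyltransferase of the same chromosome, was listed at 0 in si-NC and had 23.0 TPM in si-FTO. The annotated genes of PARP9 and DTX3L overlap on opposite strands, so reads from the overlap may not have been told apart.

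SP100 and SP110 are proteins of nuclear bodies. SP100, a core part of PML bodies, had 0.0260 TPM in si-NC against 16.1 TPM in si-FTO (log2 ratio 4.06), and SP110 had 0.916 TPM and 5.93 TPM (log2 ratio 1.86). PML itself, which is outside the 43 members, had 15.5 TPM and 14.97 TPM, so the body's scaffold gene was alike in the groups while SP100 was not. SP140L, a paralog that lies between the pair on chromosome 2, had 0.374 TPM and 6.77 TPM.

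The remaining 9 members went different ways. LGALS3BP, a secreted glycoprotein that binds galectins, had 35.0 TPM in si-NC against 661 TPM in si-FTO (log2 ratio 4.20). IFI16, a sensor of DNA in the nucleus, had 0.237 TPM and 40.2 TPM (log2 ratio 5.06). IFI35, a leucine zipper protein that pairs with NMI, had 3.75 TPM and 35.3 TPM (log2 ratio 2.93). NMI, outside the members, had 0.880 TPM and 29.5 TPM, so both partners were higher in si-FTO. IFI6, a protein of the endoplasmic reticulum that limits flavivirus replication, had 10.8 TPM and 27.9 TPM (log2 ratio 1.29). IFI27, a mitochondrial protein, had 4.26 TPM in si-NC against 1.67 TPM in si-FTO (log2 ratio -0.98), just short of 2-fold lower. EPSTI1 had 0.667 TPM and 0.0625 TPM, and IFI44L had 0.592 TPM in si-NC and was listed at 0 in si-FTO. IFI44, the gene beside IFI44L, had 0.0229 TPM and 0.580 TPM, and XAF1, an antagonist of the caspase inhibitor XIAP, was listed at 0 in both groups. Among these genes IFI27, IFI44L and EPSTI1 had the higher mean in si-NC, with HERC5, IFIT5, USP18 and CMPK2 from the other classes.

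Other genes known to be induced by interferon were compared by their counts. Of 37 further interferon-induced genes, 13 were at least 2-fold higher in si-FTO and 1 was lower, and their median log2 ratio was 0.47. IFI30, a thiol reductase of antigen processing, had 42.7 TPM in si-NC against 497 TPM in si-FTO, and PARP12 and PARP10, relatives of PARP14, had 0.0352 TPM and 0.914 TPM in si-NC and 38.8 TPM and 32.4 TPM in si-FTO. Besides these, NMI and SP140L, TRIM21, TRIM5, ZNFX1 and SLFN5 were past 2-fold, the last 4 at 7.88 TPM, 2.93 TPM, 11.7 TPM and 1.01 TPM in si-NC and 18.1 TPM, 10.8 TPM, 29.5 TPM and 7.08 TPM in si-FTO, and TRIM34 was listed at 0 in si-NC with 5.36 TPM in si-FTO. LAP3, a peptidase, was the lower one, with 124 TPM and 56.0 TPM. ADAR and EIF2AK2, an editor and a sensor of double-stranded RNA, did not pass 2-fold, at 195 TPM and 15.6 TPM in si-NC and 191 TPM and 25.8 TPM in si-FTO. Nor did other genes of at least 10 TPM in a group, with APOL2, TRIM25, PLSCR1 and TDRD7 at 12.7 TPM, 33.9 TPM, 30.4 TPM and 13.9 TPM in si-NC and 22.7 TPM, 51.0 TPM, 42.5 TPM and 11.5 TPM in si-FTO. SHISA5, TRIM14, PNPT1, NT5C3A and WARS1 belonged to them as well, at 135 TPM, 27.5 TPM, 48.2 TPM, 26.1 TPM and 113 TPM in si-NC and 159 TPM, 34.8 TPM, 41.6 TPM, 25.4 TPM and 98.03 TPM in si-FTO. The share of higher genes was smaller in this list than in the 43 members, and the difference between the lists was not tested.

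Of 11 nucleic acid sensor genes, 5 were at least 2-fold higher in si-FTO and 0 were lower, beside 11.4% and 17.0% of all genes compared. CGAS, the sensor of DNA in the cytosol, had 0.0107 TPM in si-NC against 14.0 TPM in si-FTO, its adaptor STING1 had 7.11 TPM and 36.6 TPM, and IFIH1, the sensor of long double-stranded RNA, had 0.669 TPM and 9.16 TPM. MAVS and TBK1, the adaptor and the kinase behind the RNA sensors, did not pass 2-fold, at 23.6 TPM and 13.3 TPM in si-NC and 25.8 TPM and 19.7 TPM in si-FTO. The sensor IFIH1 was thus past 2-fold while its adaptor MAVS was not, whereas CGAS and its adaptor STING1 both were.

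Of 15 genes of MHC class I and peptide loading, which interferon gamma induces, 7 were higher and 1, HLA-F, was lower. PSMB8, a catalytic subunit of the immunoproteasome, had 0.312 TPM in si-NC against 142 TPM in si-FTO, and NLRC5, the transactivator of these genes, had 1.78 TPM and 32.5 TPM. B2M was higher too, at 168 TPM in si-NC against 566 TPM in si-FTO, whereas HLA-B had 113 TPM and 118 TPM. The peptide transporter genes TAP1 and TAP2 had 19.1 TPM and 50.1 TPM in si-NC and 41.4 TPM and 44.3 TPM in si-FTO, and the loading genes TAPBP and ERAP1 had 9.61 TPM and 4.36 TPM in si-NC and 50.8 TPM and 15.8 TPM in si-FTO. Of the other immunoproteasome subunits, PSMB9 had 1.58 TPM and 43.99 TPM and PSMB10 had 35.2 TPM and 23.4 TPM. HLA-C, HLA-E and HLA-F had 137 TPM, 50.1 TPM and 10.8 TPM in si-NC and 100.4 TPM, 76.1 TPM and 2.75 TPM in si-FTO. Of these chains and HLA-B, HLA-F alone passed 2-fold. HLA genes are alike in sequence, so reads may have been split between them.

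**Figure D5:**
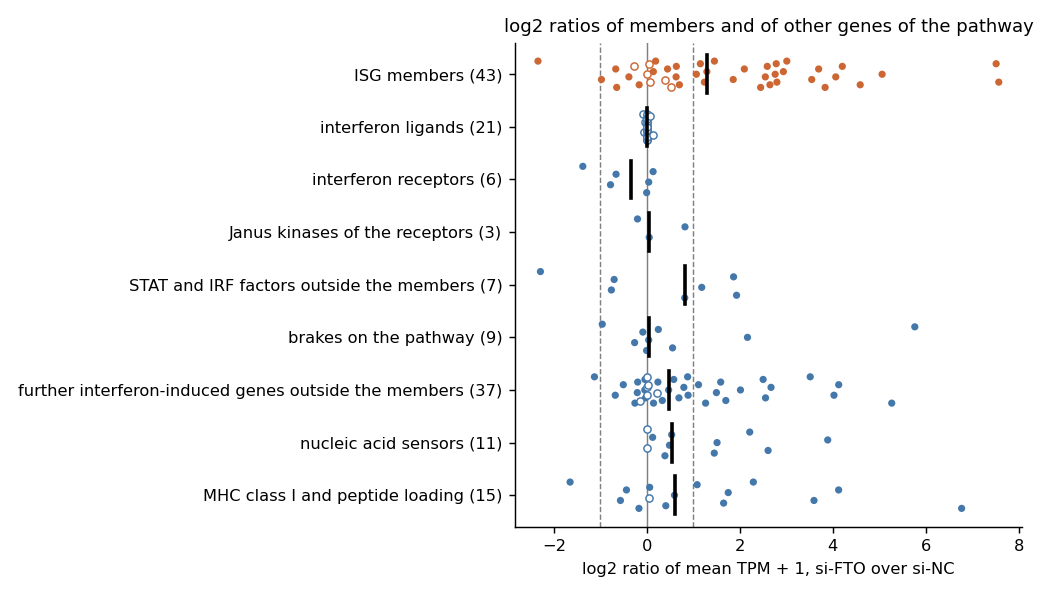
The log2 ratio of mean TPM + 1 (si-FTO over si-NC) of each gene in the list of 43 members (orange) and in 8 other lists of the pathway (blue), with open circles for genes under the filter, a black bar at the median of each list and dashed lines at 2-fold. The members have a median of 1.29, 4 of 6 receptors lie below 0, and all ligands are under the filter.

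The position of the members in the genome was set beside these values. In GRCh37 they fall in 28 loci when members less than 500000 bases apart are joined, and 10 loci with at least 2 members hold 25 of them. Members of 1 locus could differ, as HERC5 and HERC6 on chromosome 4 and OAS2 and OAS3 on chromosome 12 did. The neighbours named next are the nearest protein-coding genes with at least 1 TPM in a group. The IFITM cluster of chromosome 11 lies between PSMD13 and PGGHG on one side, at 120.0 TPM and 15.5 TPM in si-NC and 80.7 TPM and 10.1 TPM in si-FTO, and B4GALNT4 and PKP3 on the other, at 9.60 TPM and 0.949 TPM in si-NC and 26.7 TPM and 64.6 TPM in si-FTO. BST2, on chromosome 19, lies between GTPBP3 and MVB12A, which had 116 TPM and 101 TPM in si-NC and 36.9 TPM and 66.5 TPM in si-FTO.

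Over all loci, 117 protein-coding genes with at least 1 TPM in a group lay inside a locus or were among the 2 nearest on a side. Of these neighbours, 15.4% were at least 2-fold higher in si-FTO and 19.7% were at least 2-fold lower, with a median log2 ratio of -0.18. All 13502 protein-coding genes of that minimum outside the members gave 12.4%, 20.0% and -0.21. Neighbours of the members thus had shares close to those of protein-coding genes at large, while the members did not.

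Overlapping and similar genes touch several of these values. Of 7 paralogs or neighbours listed for this reason, 1 was at least 2-fold higher, IFI27L2, at 13.9 TPM in si-NC against 32.5 TPM in si-FTO, and IFI27L1 and TRIM6 had 24.6 TPM and 9.80 TPM in si-NC and 20.3 TPM and 11.6 TPM in si-FTO. When the 7 members that share over 10% of their words with other genes were left out, 20 of 36 members were at least 2-fold higher and 1 was lower. Leaving out the 10 members overlapped on the opposite strand by a gene of at least 1 TPM gave 17 of 33 and 1. Both restrictions were chosen after the values had been seen. Whether the differences exceed the spread between the 3 libraries of a group was not tested.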

How the data were processed

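RNA labelled as that of AGS cells was sequenced in 3 si-NC and 3 si-FTO libraries made with a stranded kit. Libraries were grouped by their titles. The study's methods name Bowtie and RSEM with hg19, whereas the submitters' processing notes list HISAT2 and hg19; the annotation and the strand setting are not given in the sources used here. The deposited values are TPM that the authors averaged within each group, beside a log2 ratio, a p-value and a q-value of their own comparison, which were not used. A second table of 7986 genes with such columns was not used either.

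Symbols came from a table of gene names that matched 55726 of the 58174 identifiers, and gene types, coordinates and transcripts from GENCODE lifted to GRCh37. Log2 ratios used a pseudocount of 1 TPM and a minimum of 0.5 TPM. Group means allow no test between libraries, so the shares of all genes compared past 2-fold are given for comparison with the counts of members and lists. Shared sequence was measured as 31-base words of the canonical transcript found in transcripts of other genes. Promoter windows were taken from RefSeq (GRCh38.p14). Members and lists were chosen with earlier results of these data known. All 43 members are described, and other genes of the pathway are named where they had at least 10 TPM in a group, or were 2-fold apart with at least 5 TPM; genes of a pathway below this, PTPRC, CD3D, MS4A1, the neighbours and other examples were chosen after their values were seen. Of the pathway genes, 2 were left out of their lists and are not reported here. Of the markers, PECAM1 and GIF were not matched. Alternatives were other pseudocounts, filters, scalings and bounds. The calculations used Python 3.11.15, numpy 2.4.6 and pandas 2.3.3, and were tested on simulated data.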

Additional observations from a re-analysis of the deposited data

How the results depend on the processing

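No paired analysis was possible because the table holds 1 mean per group, although the titles number the libraries in each group. For the same reason, leaving out each replicate and a replicate block were not run. The missing error between libraries and the unknown depth limit every value, above all those of genes under 1 TPM.

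Over all 43 members at the 2-fold bound, the count of 25 higher in si-FTO lay between 21 and 31 across pseudocounts, filters and scalings. With a log2 ratio of 2 as the bound, it was 19. Leaving out members that share sequence gave 20 of 36, and leaving out those overlapped on the opposite strand gave 17 of 33. The count of 1 lower member became 4 with a pseudocount of 0.1 TPM and 5 with 0.0001 TPM kept as given, no pseudocount and no filter, a setting in which the pseudocount and the filter differ at once. It was 1 under the other alternatives. The median log2 ratio of 2.09 over the 37 members that passed the filter became 2.81 with a pseudocount of 0.1 TPM, 1.29 with no filter, 2.70 at a minimum of 5 TPM, 2.29 with quantile normalization and 3.12 with 0.0001 TPM kept as given. It was 2.27 without the members that share over 10% of their 31-base words and 1.37 without those overlapped on the opposite strand, both chosen after seeing the data; the cause was not tested. Members silent in si-NC only numbered 5 when listed at 0, 8 under 0.1 TPM, 12 under 0.5 TPM and 12 under 1 TPM.

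For single members, 3 alternatives were run. None of the 26 members past 2-fold changed sign, and 8 members crossed 2-fold in at least 1 of them: CMPK2, EPSTI1, IFI27, IFI44, IFI44L, MX2, SAMD9L and TRIM22. Median-ratio scaling gave a higher log2 ratio for 42 members.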
